A study of Mus musculus with 6 samples.

Results

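Tumour necrosis factor (TNF) and the NF-kappaB transcription factors form a well-studied inflammatory signalling route in fat. The 10 genes described here are Tnf, its receptor genes Tnfrsf1a and Tnfrsf1b, the subunit genes Nfkb1, Nfkb2, Rel, Rela and Relb, and the feedback inhibitor genes Nfkbia and Tnfaip3. They were taken by name, and all 10 were found among the 46603 gene identifiers of the deposited tables and passed the filter on low counts, which left 15828 genes. RNA was sequenced from abdominal visceral fat of untreated C57/Bl6 mice aged 18 months, with 3 libraries from mice lacking nuclear myosin 1 (NM1 KO) and 3 from wild-type mice (WT). Nuclear myosin 1 is the nuclear isoform of the motor protein encoded by Myo1c. The labels used here say neither how the allele was made nor whether each library came from its own animal. The p-values therefore speak only for the spread among these 6 samples, which may be technical.

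TNF is made largely by macrophages as a membrane protein and is cut free by a protease. It binds TNFR1, which most cells carry, and TNFR2, which is found mainly on immune and endothelial cells. Receptor adaptors then activate the IkappaB kinase (IKK), which marks the inhibitor IkappaB-alpha for destruction and lets NF-kappaB dimers enter the nucleus. Genes switched on there include the pathway's own brakes, Nfkbia and Tnfaip3. In obese fat, TNF is known for reducing the response of fat cells to insulin.

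The libraries held between 24677758 and 33537818 counts. The summed level of 8 adipocyte markers lay between 18605 and 23855 CPM (read counts per megaread on scaled library sizes) in NM1 KO and between 24806 and 28141 CPM in WT, with 0 of 8 called by edgeR and 3 lower at an unadjusted p under 0.05. Myo1c had 452, 697 and 551 CPM in NM1 KO replicates 1 to 3, against 801, 759 and 801 CPM in WT replicates 1 to 3. Its count covers all isoforms, so it does not check the knockout. WT replicate 2 stood apart for many NF-kappaB genes, as described further on, and fold changes of named genes that rest on it are given with and without it. NM1 KO replicates 1 and 3 stood apart in their trend with GC content. Across genes, the log2 level of a library minus the mean of all 6 had Spearman correlations with GC content of -0.41, 0.26 and -0.45 in NM1 KO replicates 1 to 3, against 0.33, 0.26 and 0.13 in WT. Fold changes are therefore also given with the trend of each library on GC content and length removed, where that moves them by over 1.5 times or changes a call. Below, means carry SD with n = 3 per group, and each log2 fold change, NM1 KO minus WT, carries its SE. A gene was called, and is said to have risen or fallen, when its adjusted p in edgeR's quasi-likelihood test was under 0.05. Of all tested genes 4.25% were called, 2.79% higher and 1.47% lower.

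Of the 10 genes, 1 rose, Tnfaip3, and 9 were not called. At an unadjusted p under 0.05, 4 were higher (Tnf, Tnfrsf1b, Rel and Tnfaip3) and 2 lower (Tnfrsf1a and Rela). The same 6 genes had CPM ranges that did not overlap between the groups, as did 29.9% of all tested genes, and 23.7% of all tested genes had an unadjusted p under 0.05. The log2 fold change was positive in 4 of the 10, against 49.7% of all tested genes, and its median was -0.16 over the 10 genes and -0.0021 over all tested genes. DESeq2 called 3 of the 10, Tnfaip3, Rel and Tnfrsf1b, where it called 12.4% of all genes that it gave an adjusted p. Limma-voom called Tnfaip3 alone among them and 10.4% of all tested genes.

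**Figure D1:**
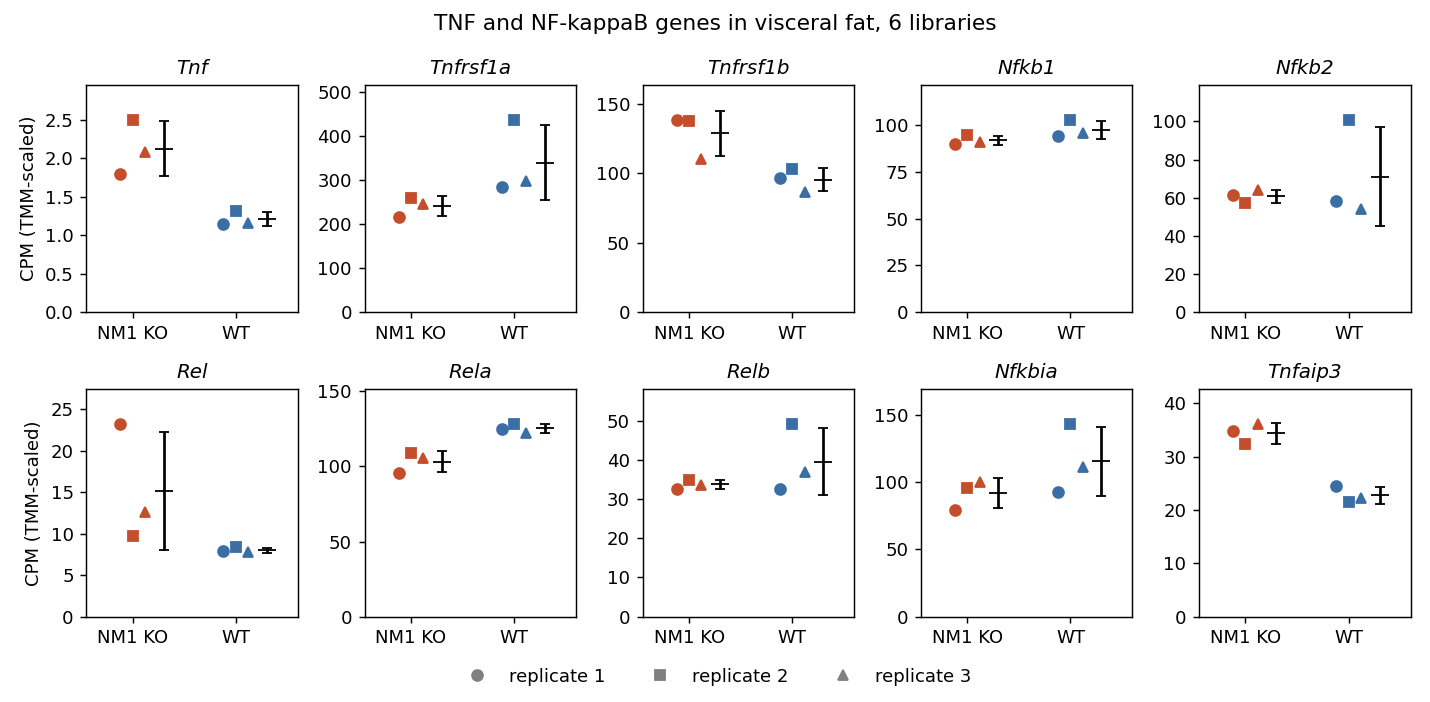
CPM of the 10 genes in each library, with NM1 KO on the left and WT on the right of each panel; marker shapes give the replicate number, and bars show mean and SD of 3 libraries. The groups do not overlap for 6 genes, and WT replicate 2 (blue square) is the highest library for 6.

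The scale of the system differed widely between its parts. Per kb of merged exons, Tnfrsf1a was the most abundant, with a level of 92.8 ± 8.65 CPM per kb in NM1 KO and 131 ± 32.8 in WT. Nfkbia followed with 56.9 ± 6.89 and 71.8 ± 15.9 CPM per kb in NM1 KO and WT. Rela and Tnfrsf1b could not be ordered in NM1 KO, at levels of 33.6 ± 2.29 and 33.8 ± 4.26 CPM per kb, whereas in WT Rela lay above Tnfrsf1b (40.8 ± 0.986 against 25.0 ± 2.18). Nfkb2, Relb and Nfkb1 came next in both groups, between 7.60 and 13.2 CPM per kb in NM1 KO and between 8.07 and 15.5 in WT, and in WT Nfkb2 (15.5 ± 5.66) and Relb (10.2 ± 2.22) lay within an SD of each other. Tnfaip3, Rel and Tnf were the lowest in both groups. Tnf, the ligand, had a level of 1.30 ± 0.215 CPM per kb in NM1 KO and 0.736 ± 0.0553 in WT. The place of Nfkb1 depends on its length: per kb of its longest principal transcript, a length chosen after seeing the data, its WT level was 23.7 ± 1.16 CPM per kb, and Nfkb2, at 22.6 ± 8.26 by the same measure, could not be ordered against it.

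The ligand stood higher in NM1 KO without passing the test. Tnf (ENSMUSG00000024401; GRCm38 chromosome 17, 35199381 to 35202007) had 1.80, 2.50 and 2.08 CPM in NM1 KO replicates 1 to 3, from 56, 82 and 57 reads, against 1.15, 1.31 and 1.16 CPM in WT replicates 1 to 3, from 31, 41 and 29 reads. Every NM1 KO library lay above every WT library. The log2 fold change was 0.82 ± 0.29 (95% interval 0.13 to 1.50, adjusted p = 0.152), and it stayed between 0.68 and 0.94 when any 1 library was left out. Macrophages are a source of TNF, and the summed level of 10 macrophage markers was 5874, 4932 and 4692 CPM in NM1 KO replicates 1 to 3 and 3031, 2472 and 3335 CPM in WT replicates 1 to 3, with 4 of the 10 called higher. None of the 10 was at 0. Their part in the Tnf values was not tested, and in bulk tissue more cells of a type and more RNA per cell cannot be told apart. Among 13010 other protein-coding genes whose mean reached 1 CPM, the 3 whose log2 levels ran closest to those of Tnf over the 6 libraries were Sh3rf3, Anapc1 and Nhlrc2, at root mean square distances of 0.0869, 0.108 and 0.112.

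The receptor genes had fold changes of opposite sign, and neither passed the test. Tnfrsf1b, which encodes TNFR2 (ENSMUSG00000028599, chromosome 4, 145213463 to 145246870), had 139, 138 and 110 CPM in NM1 KO replicates 1 to 3, against 96.4, 103 and 86.5 CPM in WT. The lowest NM1 KO library lay above the highest WT library, with a log2 fold change of 0.44 ± 0.13 (95% interval 0.13 to 0.74, adjusted p = 0.101). Tnfrsf1a, which encodes TNFR1 (ENSMUSG00000030341, chromosome 6, 125349362 to 125362484), had 216, 259 and 246 CPM in NM1 KO replicates 1 to 3, against 283, 437 and 297 CPM in WT. All NM1 KO libraries were below all WT libraries, but WT replicate 2 carried much of the difference. The log2 fold change was -0.50 ± 0.19 (95% interval -0.93 to -0.060, adjusted p = 0.166), and -0.27 without WT replicate 2 (adjusted p = 0.287). Removing the GC and length trend gave -0.31 (adjusted p = 0.320).

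Within each library the ratio of the receptors does not depend on library scaling. Tnfrsf1b per kb stood at 0.436, 0.361 and 0.304 of Tnfrsf1a per kb in NM1 KO replicates 1 to 3, against 0.231, 0.160 and 0.198 in WT replicates 1 to 3. The groups did not overlap, and the mean ratio was 0.367 ± 0.0664 in NM1 KO and 0.196 ± 0.0355 in WT. The difference of the log2 ratio was 0.90 (exact two-sided permutation p = 0.1, the smallest p that 3 against 3 can give), and 0.76 without WT replicate 2. Tnfrsf1b is known to be high on immune cells, and the macrophage marker sums above were higher in NM1 KO, as the ratio was. Markers of vascular endothelium were lower in NM1 KO. Their sum over 9 genes was 367, 557 and 540 CPM in NM1 KO replicates 1 to 3 and 1191, 1062 and 907 CPM in WT, with 5 of 9 called lower and none at 0. The part of either cell type in the receptor ratio was not tested.

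Among the DNA-binding subunits, none was called. Rela encodes p65, which with p50 forms the classical dimer (ENSMUSG00000024927, chromosome 19, 5637483 to 5648130). It had 95.4, 109 and 105 CPM in NM1 KO replicates 1 to 3, against 125, 128 and 122 CPM in WT. The NM1 KO libraries were all lower, with a log2 fold change of -0.28 ± 0.096 (95% interval -0.50 to -0.056, adjusted p = 0.137). It was -0.068 with the GC and length trend removed (adjusted p = 0.682). Nfkb1, which encodes the p105 precursor of p50 (ENSMUSG00000028163, chromosome 3, 135584655 to 135691547), had 89.9, 94.4 and 90.9 CPM in NM1 KO, against 93.8, 103 and 95.5 CPM in WT. Here the groups overlapped, and the 95% interval of the log2 fold change ran from -0.30 to 0.13 (adjusted p = 0.606). With the GC and length trend removed the estimate was -0.29 (adjusted p = 0.125).

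Rel, which encodes c-Rel, a subunit most used by lymphocytes and myeloid cells (ENSMUSG00000020275, chromosome 11, 23736847 to 23770970), had 23.3, 9.74 and 12.6 CPM in the NM1 KO libraries 1 to 3. WT libraries had 7.88, 8.34 and 7.73 CPM. All NM1 KO libraries lay above WT, but NM1 KO replicate 1 stood far above the other two. The log2 fold change was 0.93 ± 0.32 (95% interval 0.18 to 1.68, adjusted p = 0.139), and it was 0.50 when NM1 KO replicate 1 was left out (adjusted p = 0.263). Leaving out NM1 KO replicate 2 gave 1.17 (adjusted p = 0.0439), the only one of the 6 removals with a call. Removing the GC and length trend gave 0.58 (adjusted p = 0.166). NM1 KO replicate 1 was also the highest library for B cell markers. Their sum over 6 genes was 3193, 792 and 1228 CPM in NM1 KO replicates 1 to 3 and 1202, 2167 and 976 CPM in WT, with 0 of 6 called by edgeR, also 0 when p was left unadjusted, and none at 0 counts. T cell markers summed to 45.9, 12.7 and 39.8 CPM in NM1 KO and 13.5, 17.0 and 16.4 CPM in WT, with 0 of 8 called by edgeR, 3 higher when p was left unadjusted, and none at 0 counts. Their part in the Rel values was not tested.

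The genes of the alternative NF-kappaB branch gave no difference beyond the spread. Nfkb2, which encodes the p100 precursor of p52 (ENSMUSG00000025225, chromosome 19, 46304320 to 46312385), had 61.2, 57.0 and 63.9 CPM in NM1 KO replicates 1 to 3, against 58.1, 101 and 54.1 CPM in WT. Relb, the usual partner of p52 (ENSMUSG00000002983, chromosome 7, 19606217 to 19629438), had 32.7, 35.0 and 33.7 CPM in NM1 KO, against 32.6, 49.3 and 37.0 CPM in WT. In both genes WT replicate 2 was the highest of the 6 libraries and the groups overlapped. The log2 fold change of Nfkb2 was -0.23 ± 0.24 (95% interval -0.79 to 0.33, adjusted p = 0.604) and turned to 0.11 without WT replicate 2. It was -0.042 with the GC and length trend removed. That of Relb was -0.23 ± 0.16 (95% interval -0.61 to 0.15, adjusted p = 0.433) and -0.041 without that library, and -0.030 with the GC and length trend removed. The ratio of Nfkb2 to Nfkb1 per kb was 1.74 ± 0.137 in NM1 KO and 1.90 ± 0.595 in WT (log2 difference -0.083, exact two-sided permutation p = 0.9), and the log2 difference was 0.16 without WT replicate 2. Nfkb2 shares 6.52% of its merged exon bases with Psd and 11.6% with AC114539.1 on the opposite strand, so its level is uncertain to that extent because no source used here states the strand setting of the counting.

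Of the feedback inhibitors, Tnfaip3 rose and Nfkbia was not called. Tnfaip3 encodes A20, an enzyme that edits ubiquitin chains on receptor adaptors and ends the signal (ENSMUSG00000019850, chromosome 10, 19000910 to 19015657). It had 34.8, 32.3 and 36.2 CPM in NM1 KO replicates 1 to 3, against 24.6, 21.4 and 22.2 CPM in WT. The groups were well apart, with means of 34.4 ± 1.95 CPM in NM1 KO and 22.7 ± 1.62 CPM in WT, and Tnfaip3 rose by a log2 of 0.60 ± 0.11 (edgeR adjusted p = 0.0349). The size held when 1 library was left out, between 0.56 and 0.66. The call did not: leaving out NM1 KO replicates 1, 2 and 3 in turn gave adjusted p-values of 0.0891, 0.0267 and 0.116, and leaving out WT replicates 1, 2 and 3 gave 0.0820, 0.102 and 0.136. With the GC and length trend removed, the log2 fold change was 0.41 (adjusted p = 0.0636), and Tnfrsf1b was the gene called in its place (0.57, adjusted p = 0.0410).

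Nfkbia encodes IkappaB-alpha, the inhibitor that holds NF-kappaB in the cytoplasm and is remade after a signal (ENSMUSG00000021025, chromosome 12, 55489410 to 55492647). It had 78.9, 95.9 and 99.8 CPM in NM1 KO replicates 1 to 3, against 92.6, 143 and 111 CPM in WT. The groups overlapped, and WT replicate 2 was again the highest. The log2 fold change was -0.34 ± 0.18 (95% interval -0.76 to 0.083, adjusted p = 0.300), and -0.15 without that library. Removing the GC and length trend gave -0.19 (adjusted p = 0.507). The upper bound for Nfkbia lies below the lower bound of 0.34 for Tnfaip3. The difference between these 2 genes was not itself tested.

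**Figure D2:**
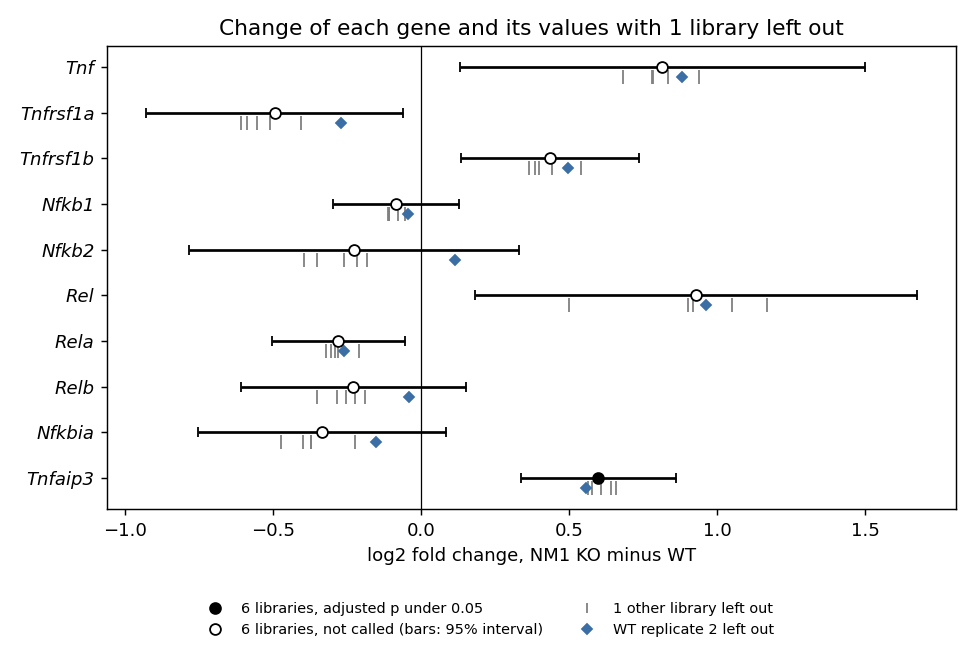
Log2 fold change (NM1 KO minus WT) of each gene with its 95% interval from all 6 libraries, filled where called; ticks and blue diamonds below give the value with 1 library left out. Tnfaip3 is the filled point at 0.60, and Nfkb2 crosses 0 when WT replicate 2 is left out.

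The promoters of these inhibitors and of 2 subunit genes hold a kappaB motif, and they are shown because these genes are known NF-kappaB targets within the set. RefSeq start sites on GRCm38.p6 were given for 8 of the 10 genes, all but Nfkb1 and Relb. The letters GGG, any 2 bases and TTTCC, searched on both strands in the 250 bases before each start, were found in 4 of the 8 genes (50.0%) and in 1.65% of 27025 genes in the same table. The 4 were Tnfaip3, Nfkbia, Rel and Nfkb2, and the letters were not found in that window for Tnf, Tnfrsf1a, Tnfrsf1b and Rela. Among other pathway genes described below, 10 of 59 with a sequence held the letters (16.9%). These included 5 of 17 NF-kappaB target genes (29.4%), so the motif is not particular to the 10 genes. Capitals mark the match, sequences run 5′ to 3′ on the gene's strand (the match in Tnfaip3, Nfkbia and Rel reads on the other strand), and Tnfaip3 and Nfkb2 are shown only for 30 bases because annotated transcripts reach into their windows.
Tnfaip3, chr10:19015411-19015440, minus strand: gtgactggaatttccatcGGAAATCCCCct
Nfkbia, chr12:55492648-55492897, minus strand: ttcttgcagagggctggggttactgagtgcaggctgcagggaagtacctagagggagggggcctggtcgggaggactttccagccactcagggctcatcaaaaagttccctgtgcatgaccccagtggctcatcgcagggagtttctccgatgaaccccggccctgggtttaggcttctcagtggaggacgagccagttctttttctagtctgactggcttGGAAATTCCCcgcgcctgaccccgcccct
Rel, chr11:23770971-23771090, minus strand: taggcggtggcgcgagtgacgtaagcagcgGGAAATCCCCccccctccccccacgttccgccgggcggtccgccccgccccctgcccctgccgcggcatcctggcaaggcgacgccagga
Nfkb2, chr19:46304707-46304736, plus strand: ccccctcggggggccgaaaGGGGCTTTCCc
Tnfaip3 and Rel carry the same 10 bases on the same strand, and of the 4 genes only Tnfaip3 was called. The printed match lies within 30 bases of the RefSeq start in Tnfaip3, Nfkbia and Nfkb2, and from 91 to 82 bases before it in Rel. For Tnfaip3 and Nfkb2 the printed bases lie inside the gene positions given above. Their matches are therefore upstream of the RefSeq start used but not of the whole annotated gene. Nfkb2 has a second match, not shown here, at positions -225 to -216 relative to another of its start sites. A match is a description of letters, not of binding.

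One WT library stood apart for part of this pathway. WT replicate 2 was the highest of the 6 libraries for 6 of the 10 genes (Tnfrsf1a, Nfkb1, Nfkb2, Rela, Relb and Nfkbia), for 35.1% of 74 other pathway genes described below, and for 20.5% of all tested genes. NM1 KO replicate 1 was the highest for 36.5% of those 74 genes and for 24.7% of all tested genes, so being highest does not single out WT replicate 2 among the pathway genes. Its excess over the other WT libraries was uneven across the lists. Among the 22 tested NF-kappaB target genes, 8 reached at least 1.5 times the mean of the other WT libraries there, as did 4 of 11 other receptors, 3 of 12 inhibitors, 1 of 6 ligand and shedding genes, 0 of 11 adaptors, 0 of 12 genes of IKK activation, 2 of the 10 genes (Tnfrsf1a and Nfkb2) and 7.84% of all tested genes. Genes of this pathway at 2 times or more, named after their values were seen, included the neutrophil-attracting chemokine gene Cxcl1. It had 2.70, 5.13 and 3.28 CPM in NM1 KO replicates 1 to 3, against 1.92, 26.4 and 2.85 CPM in WT. Il1b, which encodes interleukin-1 beta, had 0.901, 0.763 and 1.31 CPM in NM1 KO, against 0.444, 5.72 and 0.681 CPM in WT. Icam1, an adhesion molecule for leukocytes, had 41.2, 38.9 and 46.9 CPM in NM1 KO, against 32.9, 99.1 and 44.8 CPM in WT. In each of these 3 genes WT replicate 2 was the highest library and the NM1 KO values lay within the WT range. Bcl3, a nuclear IkappaB protein, had 18.2, 15.1 and 15.6 CPM in NM1 KO, against 18.0, 52.9 and 23.4 CPM in WT. Nfkbiz, another, had 19.9, 22.2 and 26.7 CPM in NM1 KO, against 17.8, 46.1 and 23.1 CPM in WT. Sod2, Ier3, Ccl2 and Ccl3 met the same limit. The log2 fold change of Bcl3 was -0.95 with all 6 libraries and -0.35 without WT replicate 2. That of Ier3 was -1.49 and -0.81, and neither gene was called in either fit.

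Neutrophil markers, taken as a sum, were also high in that library. Over 6 genes they summed to 25.1, 21.2 and 14.9 CPM in NM1 KO replicates 1 to 3 and to 13.8, 61.0 and 15.4 CPM in WT replicates 1 to 3. Of the 4 that were tested 0 were called by edgeR, and 2, Retnlg and S100a9, were lower in NM1 KO at an unadjusted p under 0.05. For these 2 every WT library lay above every NM1 KO library, and the ranges of 29.9% of all tested genes did not overlap. S100a8 went the other way, with 13.6 CPM in NM1 KO replicate 1, above its 8.73 CPM in WT replicate 2. Cxcr2, the receptor of Cxcl1 on neutrophils, had 5.72 CPM in WT replicate 2 and at most 0.146 CPM in every other library. Ly6g, a defining neutrophil marker, was at 0 in all libraries but WT replicate 1, where it had 0.148 CPM. Their part in the high values of WT replicate 2 was not tested. Leaving the library out moved the median log2 fold change of the NF-kappaB target genes to 0.73, against 0.15 with all 6 libraries, and 17 rather than 13 of 22 were positive. For the 10 genes the median moved to 0.037, with 5 rather than 4 positive. WT replicate 2 was singled out for its high values in genes of this pathway, so a rise of both medians without it partly follows from that choice. List medians were not taken for the other removals.

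**Figure D3:**
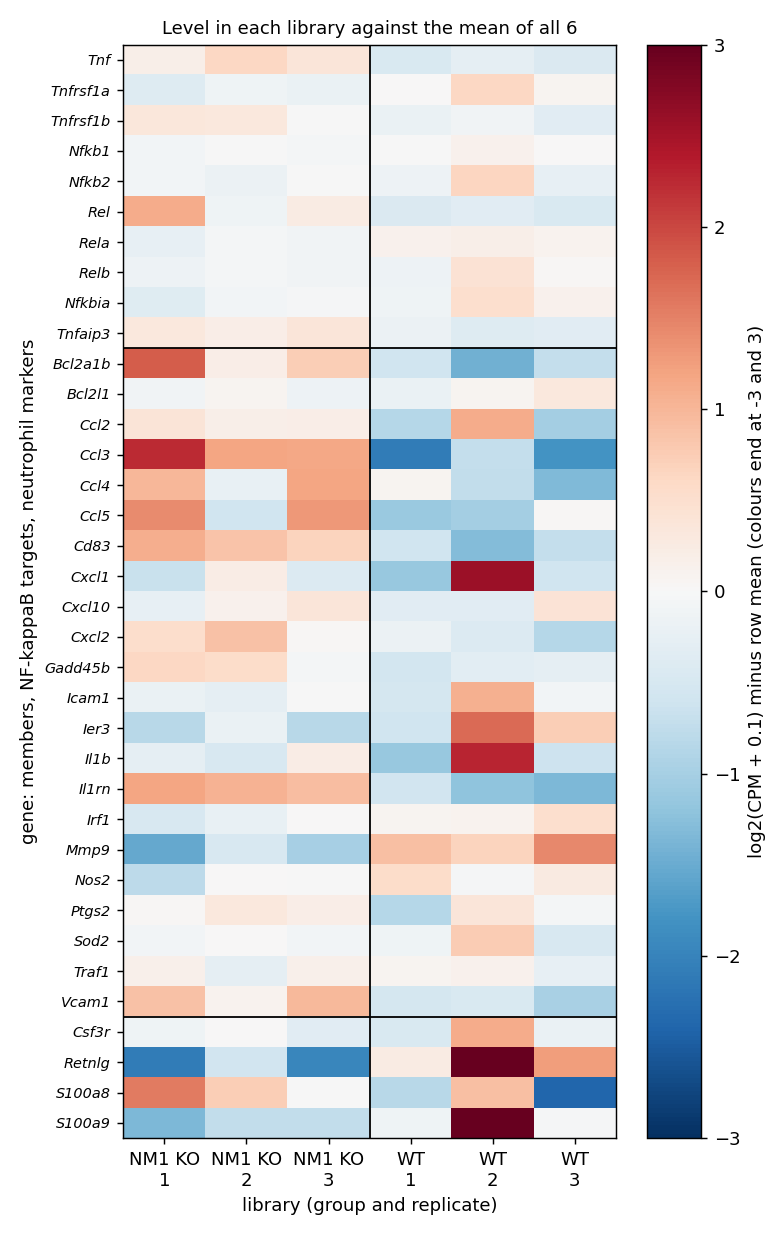
Log2(CPM + 0.1) minus the mean of all 6 libraries for the 10 genes (top), tested NF-kappaB target genes (middle) and tested neutrophil markers (bottom), NM1 KO libraries on the left and WT on the right; red is above the mean. WT replicate 2 is red for Cxcl1, Il1b, Icam1, Ier3 and Sod2 and for 4 of 4 neutrophil markers, though S100a8 is highest in NM1 KO replicate 1.

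Around the 10 genes, 78 other genes of the pathway were listed in 6 lists and 74 were tested. Of these, 7 rose and 1 fell, 10.8% against 4.25% of all tested genes, and their median log2 fold change was 0.12. The lists were drawn up with earlier results of these data known, so this share is a description. The number of calls depended on which libraries were included: leaving out NM1 KO replicates 1, 2 and 3 in turn gave 4, 17 and 0 calls, and leaving out WT replicates 1, 2 and 3 gave 1, 0 and 0. The calls over all genes varied in the same way, at 244, 1654 and 5 in the first 3 of these fits and 37, 4 and 1 in the others. In the fits that gave 0, edgeR found 20, 18 and 18 at an unadjusted p under 0.05. With all 6 libraries it found 24 of the 74 at that limit, against 23.7% of all tested genes. The share over all genes at that limit is not given for the fits with 1 library left out, so their counts cannot be set against it.

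Among ligands and shedding genes, 1 of 6 rose and none fell, with a median of 0.0100. The gene that rose was Adam17, the protease that frees TNF from the membrane. It had 71.5, 58.4 and 65.2 CPM in NM1 KO replicates 1 to 3, against 46.1, 42.4 and 43.0 CPM in WT. Every NM1 KO library lay above WT (log2 0.57 ± 0.11, edgeR adjusted p = 0.0395). With the GC and length trend removed the log2 fold change was 0.32 (adjusted p = 0.0819), and the gene overlaps Iah1 and Gm22766. Rhbdf1, an iRhom protein that helps ADAM17 mature, was not called (log2 -0.34, adjusted p = 0.218, and -0.19 with that trend removed).

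Of 11 other receptors of the TNF superfamily, 1 rose, with a median of 0.12. Tnfrsf11a, which encodes RANK, the receptor that drives osteoclast formation and is also carried by macrophages, had 21.9, 20.5 and 18.1 CPM in the NM1 KO libraries 1 to 3. In WT it had 9.87, 9.40 and 10.1 CPM. The groups were far apart and tight (log2 1.04 ± 0.14, edgeR adjusted p = 0.0186), and the log2 fold change stayed between 0.99 and 1.11 with any 1 library left out. The call held without NM1 KO replicate 1 or 2. It was lost without NM1 KO replicate 3 or any 1 WT library (edgeR adjusted p between 0.0625 and 0.0898). Tnfrsf10b, a death receptor for the ligand TRAIL, was not called (log2 -0.74, adjusted p = 0.113).

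Of 11 adaptors and ubiquitin ligases, edgeR called 0, with 3 at an unadjusted p under 0.05, and DESeq2 and limma-voom each called 1, Rbck1. Over all genes, 23.7% had an unadjusted p under 0.05 in edgeR, and DESeq2 and limma-voom called 12.4% and 10.4%. Rbck1, the HOIL-1 subunit of the linear ubiquitin ligase, was at -0.38 ± 0.099 on the log2 scale (adjusted p = 0.0778), and Ripk1, the kinase that docks on TNFR1, was at 0.41 ± 0.13 (adjusted p = 0.116). With the GC and length trend removed these values were -0.19 and 0.15. Of 12 genes of IKK activation 1 rose, with a median of 0.15. Ikbkg, which encodes the regulatory subunit NEMO, had 66.3, 64.4 and 54.5 CPM in NM1 KO replicates 1 to 3, against 39.9, 40.2 and 40.3 CPM in WT (log2 0.62 ± 0.11, edgeR adjusted p = 0.0313). The catalytic subunit genes Chuk and Ikbkb had log2 fold changes of 0.0040 ± 0.18 and 0.074 ± 0.091 and were not called. For Ikbkg the log2 fold change was 0.37 with the GC and length trend removed (adjusted p = 0.106), and the gene overlaps G6pdx. Tab2, an adaptor of the upstream kinase TAK1, was not called (log2 0.32, adjusted p = 0.237, and 0.11 with that trend removed).

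Of 12 other inhibitors and deubiquitinases, edgeR called 0, with 4 at an unadjusted p under 0.05, DESeq2 called 2 and limma-voom 3. Over all genes these last shares were 23.7%, 12.4% and 10.4%. Tnip1, a partner of A20, had 105, 101 and 93.3 CPM in NM1 KO replicates 1 to 3, against 62.7, 82.1 and 53.7 CPM in WT. The groups did not overlap, and the log2 fold change was 0.59 ± 0.16 (adjusted p = 0.0859), or 0.78 without WT replicate 2 (adjusted p = 0.0699). With the GC and length trend removed it was 0.80 and called by edgeR (adjusted p = 0.0420). Itch, a ubiquitin ligase that works with A20, had one of 0.56 ± 0.16 (adjusted p = 0.0966), and 0.20 with that trend removed (adjusted p = 0.208).

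**Figure D4:**
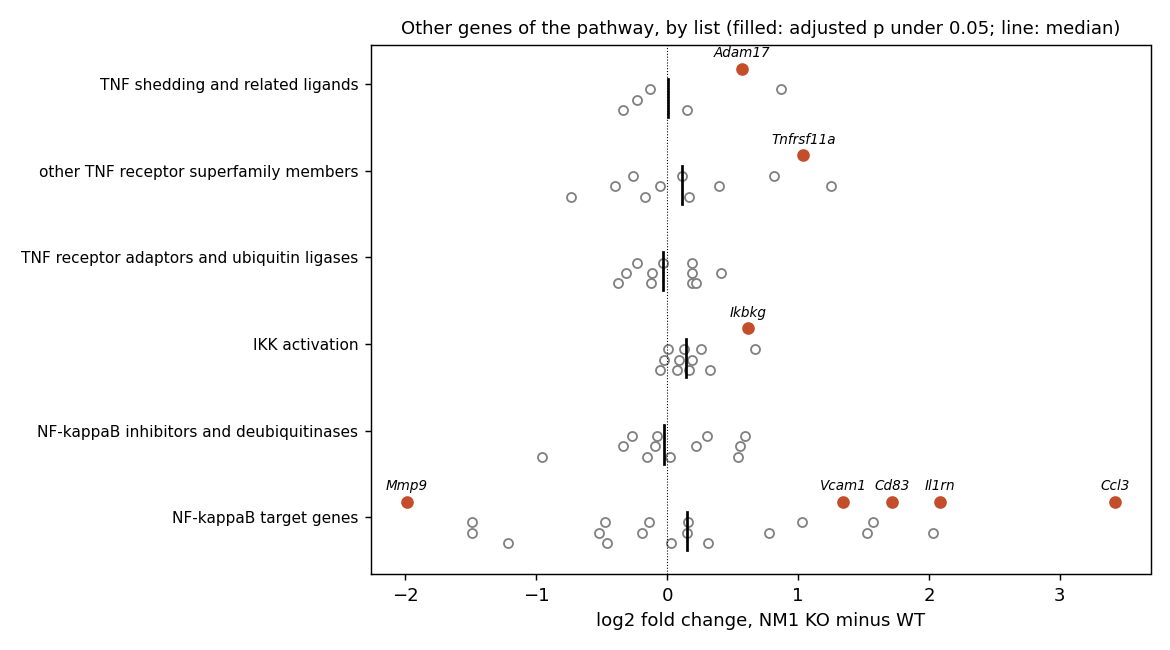
Log2 fold change (NM1 KO minus WT) of each tested gene in 6 pathway lists; filled and named points were called, open points were not, and lines are list medians. In all, 7 genes are called on the right of 0 and Mmp9 on the left.

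Among 22 tested targets of NF-kappaB, 4 rose and 1 fell. Cd83, a surface protein of activated dendritic cells and macrophages, had 51.8, 44.0 and 38.9 CPM in NM1 KO replicates 1 to 3, against 16.1, 9.91 and 14.9 CPM in WT (log2 1.72 ± 0.21, edgeR adjusted p = 0.0182). Il1rn, which blocks interleukin-1, had 16.9, 15.4 and 14.1 CPM in NM1 KO, against 4.95, 3.13 and 2.85 CPM in WT. The groups were well apart for both genes, and Il1rn rose by a log2 of 2.08 ± 0.25 (edgeR adjusted p = 0.0182). Vcam1, an adhesion molecule of endothelium and stroma, averaged 62.5 ± 18.5 CPM in NM1 KO and 24.6 ± 4.44 CPM in WT (log2 1.35 ± 0.25, edgeR adjusted p = 0.0363). The Vcam1 gene overlaps Gm43109. The chemokine gene Ccl3 had 129, 64 and 52 reads in NM1 KO replicates 1 to 3, against 3, 14 and 4 reads in WT (log2 3.42 ± 0.62, edgeR adjusted p = 0.0334). The matrix protease gene Mmp9 averaged 12.2 ± 4.43 CPM in NM1 KO and 48.6 ± 14.2 CPM in WT, and fell by 1.99 on the log2 scale (edgeR adjusted p = 0.0270). Every NM1 KO library lay on the same side of every WT library for these 5 genes, which were chosen by their calls. The groups did not overlap for 9 of the 22 targets and for 29.9% of all tested genes. The macrophage marker sums given for Tnf were higher in NM1 KO too. Stromal progenitor markers, 6 genes with none at 0, summed to 4984, 6288 and 5164 CPM in NM1 KO replicates 1 to 3 and 5018, 3850 and 4681 CPM in WT, with 1 of 6 called, Pdgfra, which was higher. The log2 fold change was positive for 3 of these 6 markers and negative for 3. The part of these cell types in the values was not tested. Il6 and Sele were too low to test. Ccl2, a chemokine that draws monocytes, had 35.9, 30.6 and 31.4 CPM in NM1 KO replicates 1 to 3, against 15.0, 59.4 and 13.3 CPM in WT. NM1 KO lay between WT replicate 2 and the other WT libraries, and the log2 fold change was 0.16 (adjusted p = 0.889), or 1.20 without WT replicate 2 (adjusted p = 0.0582).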

How the data were processed

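Per the submitters' processing notes, the tools were HISAT2 2.0.4, HTSeq, Trimmomatic 0.36, SAMtools 0.1.19 and FastQC, on GRCm38 (mm10). No source used here gives the annotation or the counting settings. The authors deposited raw whole-number counts per Ensembl gene for each library. Names and positions came from GENCODE M21, which matched 46091 of 46603 identifiers, and 0 entries named no gene. All 6 libraries were fitted with edgeR 4.0.16 in R 4.3.3 (filterByExpr, TMM, robust quasi-likelihood, genotype only, two-sided, Benjamini-Hochberg over 15828 genes, threshold 0.05). SE is the log2 fold change over the square root of F, and 95% intervals use the fit's degrees of freedom. The code was tested on simulated data. Within groups the smallest chi-square per degree of freedom between libraries was 38.4, so each counted once. Alternatives included DESeq2 1.42.0, limma 3.58.1 voom, the replicate number as a block, each library left out, and an offset for GC content and length (splines with 5 degrees of freedom). Fixed by rule, the text names the 10 genes, Myo1c, called genes of each pathway list (or the 2 with the smallest p where at most 1 was called) and the 3 genes nearest Tnf (pseudocount 0.1). Chuk, Ikbkb and the genes high in WT replicate 2 were named after their values were seen. Members and lists were chosen with earlier results of these data known. Sequences are from RefSeq on GRCm38.p6, and figures were drawn with matplotlib 3.10.9.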

Additional observations from a re-analysis of the deposited data

How the results depend on the processing

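Over all genes 673 were called, with 2166 by DESeq2, 1648 by limma-voom, 336 with the replicate number as a block, and between 1 and 1654 with 1 library left out. Among the 10 genes 1 was called, with 3 by DESeq2, between 0 and 2 with 1 library left out, and 0 under the replicate block. At an unadjusted p under 0.05 there were 7 under the block and 4 in each of the removals that gave 0. In the main fit 23.7% of all tested genes were under that limit, and the share is not given for these alternatives. Tnfaip3 had an adjusted p of 0.0670 under the block, and Tnfrsf1b took its place in both fits with the GC and length offset. Among the other pathway genes 8 were called, with 16 by DESeq2, 14 by limma-voom, 3 under the block (Cd83, Tnfrsf11a and Il1rn), and between 0 and 17 with 1 library left out. Same-numbered libraries deviated together with correlations of -0.032, -0.0037 and 0.27, so the numbers were not taken as pairs. The log2 difference of the Tnfrsf1b to Tnfrsf1a ratio lay between 0.76 and 1.03 with 1 library left out, with p = 0.25 in the exact test within replicate pairs, the smallest it can give. That of Nfkb2 to Nfkb1 lay between -0.24 and 0.16, and the reversal to 0.16 came without WT replicate 2. Without WT replicate 2 the log2 fold change turned positive for Nfkb2 (from -0.23 to 0.11), Nfkbiz (-0.34 to 0.17), Cxcl1 (-1.49 to 0.64), Il1b (-1.21 to 0.81), Icam1 (-0.48 to 0.12) and Sod2 (-0.19 to 0.25). None of these was called in that fit (edgeR adjusted p at least 0.363). All but Nfkb2 were named for high values in the library left out, so their upward move partly follows from that choice. With limma-voom's quality weights the log2 fold change turned positive for Nfkb2 (0.0072), Nfkbiz (0.048), Il1b (0.37) and Sod2 (0.069), and Nfkb2 was at 0.022 with the block and the GC and length offset together. Over the 6 removals the lowest values of these genes were -0.40, -0.59, -1.98, -1.70, -0.77 and -0.43. Ccl2 was at -0.16 without WT replicate 1, -0.20 without WT replicate 3 and 1.20 without WT replicate 2. The cause of these changes was not tested. All other alternatives kept the sign of the 10 genes. With 29 to 82 reads per library, Tnf had the fewest reads of the 10 genes.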
